A study of Mus musculus with 6 samples.

Results

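Toll-like receptors (TLR) do not signal on their own, and the genes described here encode the proteins that stand beside them. They are the 4 TIR-domain adaptors Myd88, Ticam1 (TRIF), Ticam2 (TRAM) and Tirap (Mal), the Myddosome kinase Irak4, the endosomal TLR chaperone Unc93b1, the TLR4 co-receptors Cd14 and Ly96 (MD-2), and Cd180 (RP105) with its partner Ly86 (MD-1). These 10 genes were picked by name, each occurred once among the 26110 genes listed, and all passed the filter on low values. The TLR genes themselves are given here only beside the protein that serves them.

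As background, nearly all TLR recruit MyD88, which assembles with IRAK4 into the Myddosome and leads through TRAF6 to NF-κB. TLR3 instead uses TRIF, and TLR4 uses both routes: Mal bridges it to MyD88 at the plasma membrane and TRAM bridges it to TRIF from endosomes. CD14 hands lipopolysaccharide to the TLR4/MD-2 complex, UNC93B1 escorts the nucleic acid sensing TLR to endosomes, and RP105 with MD-1 resembles TLR4/MD-2 but lacks the TIR domain. In the gut wall, resident macrophages and dendritic cells carry many of these molecules.

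The samples were MHCII-hi cells, sorted for bulk RNA-seq from the muscularis externa (ME) of the small bowel of naive mice. All animals carried 1 CX3CR1 allele replaced by GFP (labelled CX3CR1+/GFP) and were untreated, and their age is not given in the sources used here. The sort split the cells by this reporter into a CX3CR1- and a CX3CR1+ population with 3 libraries each, and tissue of 6 mice was pooled for each group. Whether each library came from its own pool is not stated, so the p-values measure the spread between these libraries, which may be technical. The labels call the cells dendritic cells, while the study speaks of macrophages. It reports by flow cytometry that few CX3CR1- cells carried CD11c or CD103 and most carried CD11b. In its imaging these cells stained for IBA-1.

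Depth was about 5346383 to 17616786 reads per library, and the lowest level of any of the 10 genes stood for about 38.8 reads. Cx3cr1 itself was lower in CX3CR1- cells, at 23.6 ± 4.80 against 366 ± 17.5 (SD, n = 3 each). All 9 macrophage markers were lower in CX3CR1- cells (median log2 fold change -2.42), and their summed level was 7645 to 8530 there and 37514 to 42177 in CX3CR1+ cells. Conventional dendritic cell markers were higher for 7 of 8 genes (3184 to 3774 against 282 to 342), B cell markers for 6 of 7 (892 to 1162 against 80.6 to 94.4), enterocyte markers for 7 of 7 (15652 to 26934 against 26.8 to 46.5, with Alpi at 0 in every CX3CR1+ library) and fibroblast markers for 6 of 6 (4117 to 12168 against 181 to 316). None of 5 smooth muscle markers was called (897 to 2608 against 1865 to 2621). Of the markers of plasmacytoid dendritic cells, monocytes and neutrophils, T cells, and glia and neurons, 2 of 5, 2 of 5, 1 of 2 and 2 of 5 tested were higher, and 1 was lower in each of the first 2 lists. Mitochondrially encoded transcripts took 47.5 to 54.9% of the CX3CR1- signal and 18.1 to 21.2% of the CX3CR1+ signal. The part of these differences in the results on the 10 genes was not tested, and in bulk samples fewer cells of a type and less RNA per cell cannot be told apart.

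Of the 10 genes, 5 were lower in CX3CR1- cells and none was higher, where a gene was called if its log2 fold change reached 1 in either direction with an adjusted p no higher than 0.05 (limma, 17812 genes). Among all genes tested, 8.15% were called lower, 12.2% higher and 79.6% not at all. The 5 were Cd14, Ticam2, Ly86, Ly96 and Unc93b1, that is both TLR4 co-receptors, the MD-1 partner of RP105, the TRAM adaptor and the endosomal chaperone. Not called were Myd88, Ticam1, Tirap, Irak4 and Cd180. The median log2 fold change (CX3CR1- minus CX3CR1+) was -0.75 over the 10 genes and -0.003 over all genes tested. In 5 of the 10 genes, those called, every CX3CR1- library lay below every CX3CR1+ library. This held for 19.8% of all genes tested (20.3% in the other direction), and the call itself favours it. In the other 5 genes the groups overlapped.

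**Figure D1:**
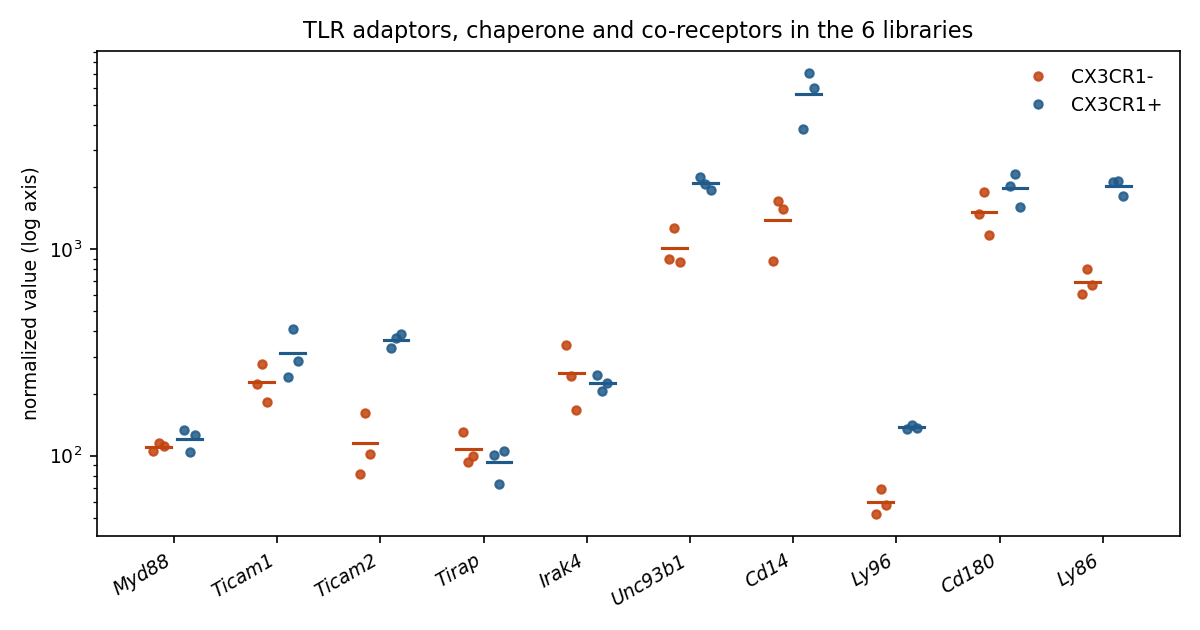
Normalized value (log axis) of the 10 genes in each of the 3 CX3CR1- and 3 CX3CR1+ libraries, with points for libraries and a line for the group mean. Ticam2, Unc93b1, Cd14, Ly96 and Ly86 show no overlap between the groups, whereas Myd88, Ticam1, Tirap, Irak4 and Cd180 do overlap.

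The co-receptors of TLR4 come first. Cd14, which binds lipopolysaccharide and passes it on, had normalized values of 875, 1706 and 1564 in the CX3CR1- libraries and of 3793, 7129 and 6052 in the CX3CR1+ libraries. The lowest CX3CR1+ library was thus above the highest CX3CR1- library, although both groups spread about as widely on the log scale (SD 0.52 and 0.47). Cd14 was 4.10-fold lower in CX3CR1- cells by the group means (log2 fold change -2.04 ± 0.29 SE, adjusted p = 5.89e-04, limma with Benjamini-Hochberg adjustment), the widest difference of the 10 genes.

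Ly96, the MD-2 subunit that holds the lipid, stood at 52.0, 69.3 and 57.6 in CX3CR1- and at 135, 141 and 135 in CX3CR1+ libraries. The CX3CR1+ libraries lay close together (SD 3.36). The difference was 2.30-fold (log2 fold change -1.20 ± 0.26 SE, adjusted p = 0.00714, limma). Their receptor Tlr4 had means of 165 ± 32.4 and 325 ± 84.0 (SD, n = 3 each) and a log2 fold change of -0.96, just short of the fold threshold.

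The RP105 complex was split. Ly86 had values of 605, 800 and 667 in CX3CR1- and of 2108, 2133 and 1810 in CX3CR1+ libraries, and was 2.92-fold lower in CX3CR1- cells (log2 fold change -1.55 ± 0.17 SE, adjusted p = 1.22e-04, limma). Cd180, whose protein needs MD-1 to reach the cell surface, had values of 1480, 1888 and 1169 in CX3CR1- and of 2015, 2298 and 1594 in CX3CR1+ libraries. The second CX3CR1- library was above the third CX3CR1+ library, and the difference did not pass the test (log2 fold change -0.39, 95% confidence interval -0.86 to 0.08, adjusted p = 0.214, limma), with the sign turning to 0.016 under quantile normalization. Both genes are also known from B cells, whose summed markers are given above. Exons of Cd180 overlap those of Mast4 on the opposite strand, Mast4 was 6.83-fold higher in CX3CR1- cells, and 3.66% of the 31-mers of the Cd180 transcripts also occur in another gene, mostly Mast4. The kit does not mark strand, so such reads cannot be assigned.

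Cd180 and Ly86 both lie on chromosome 13, at chr13:102693558-102739629 and chr13:37345208-37419036 (GRCm38, GENCODE M21, both on the plus strand). The bases just upstream of their annotated starts are shown, cut from the RefSeq promoter entries and free of annotated exons. Whether these bases bear on the change of either gene was not tested. Ticam1, the remaining gene with such a stretch, is shown beside them and was not called. Capitals mark AGGAAG on either strand, a string bound by PU.1 and other ETS factors of myeloid and B cells. The shorter GGAA inside it is not marked where it stands alone, and it also occurs in the Cd180 stretch.

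Ly86, chr13:37345095-37345207: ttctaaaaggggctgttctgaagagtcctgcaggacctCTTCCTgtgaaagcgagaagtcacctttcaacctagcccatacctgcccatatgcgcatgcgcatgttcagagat

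Cd180, chr13:102693297-102693546: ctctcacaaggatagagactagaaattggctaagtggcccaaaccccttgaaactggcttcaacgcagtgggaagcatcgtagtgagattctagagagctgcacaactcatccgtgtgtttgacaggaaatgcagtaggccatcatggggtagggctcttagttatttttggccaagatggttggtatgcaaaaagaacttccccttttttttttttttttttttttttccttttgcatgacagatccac

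Ticam1, chr17:56276787-56277017, minus strand: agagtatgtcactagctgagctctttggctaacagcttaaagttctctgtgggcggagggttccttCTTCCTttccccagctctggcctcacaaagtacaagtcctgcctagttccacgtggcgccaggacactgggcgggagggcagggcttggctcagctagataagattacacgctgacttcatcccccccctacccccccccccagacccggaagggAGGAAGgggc

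The Ly86 stretch of 113 bases held 1 match, 75 bases before the start and on the minus strand, and 13.6% of 32851 promoter windows of this length and position held at least 1. The Cd180 stretch of 250 bases held no AGGAAG, against 29.5% of windows with a match. The Ticam1 stretch of 231 bases held 2, at 165 and 10 bases before the start, where 27.3% of windows held at least 1. TATAAA, the core of a TATA box, was searched likewise on both strands and was found in none of the 3 stretches, against 5.75% of the windows of 113 bases.

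Unc93b1, the chaperone on which TLR3, TLR7, TLR9, TLR11 and TLR13 depend, had values of 893, 1261 and 868 in CX3CR1- libraries. In the CX3CR1+ libraries it stood at 2239, 2076 and 1930, all above the CX3CR1- libraries. It was 2.07-fold lower in CX3CR1- cells (log2 fold change -1.06 ± 0.18 SE, adjusted p = 0.00194, limma). This value lay close to the fold threshold and fell short of it under quantile normalization (-0.70), after rescaling to the non-mitochondrial total (-0.89), and without CX3CR1- replicate 1 (-0.99) or replicate 3 (-0.97), while the adjusted p stayed at or under 0.0151 in these fits. The receptors it serves did not share 1 direction. Tlr7 (log2 fold change -4.02), Tlr9 (-1.55) and Tlr13 (-2.52) were lower in CX3CR1- cells, as were Tlr8 (-2.51), Tlr12 (-1.70) and Tlr5 (-1.60), which also depend on it, and Tlr3 (1.25) and Tlr11 (2.49) were higher.

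Among the adaptors, only Ticam2 was called. TRAM, its product, links TLR4 to TRIF. Ticam2 had values of 81.6, 161 and 102 in CX3CR1- and of 333, 370 and 387 in CX3CR1+ libraries, with the second CX3CR1- library the highest of its group but still far below the CX3CR1+ range. It was 3.17-fold lower in CX3CR1- cells (log2 fold change -1.71 ± 0.27 SE, adjusted p = 0.00133, limma). Ticam2 (chr18:46557291-46574533) shares exons with Tmed7 on the same strand, and 15.8% of its 31-mers occur in another gene, so its values depend in part on how reads were divided between both. Tmed7 had means of 380 ± 69.4 and 551 ± 34.2 (SD, n = 3 each) and a log2 fold change of -0.55, which was not called.

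Ticam1 encodes TRIF, the sole adaptor of TLR3, and is the adaptor whose loss the study examined in mice. Its values were 222, 279 and 181 in CX3CR1- libraries and 240, 410 and 288 in CX3CR1+ libraries. The groups overlapped, and the log2 fold change of -0.44 did not pass the test (95% confidence interval -1.03 to 0.14, adjusted p = 0.266, limma). Its locus (chr17:56269319-56276786, minus strand) overlaps no other annotated gene and shares no 31-mer with one. Tlr3 was 2.36-fold higher in CX3CR1- cells (568 ± 65.3 against 241 ± 49.3, SD, n = 3 each).

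Myd88, the common adaptor, was nearly level. Its values were 105, 116 and 111 in CX3CR1- and 133, 105 and 126 in CX3CR1+ libraries, and the log2 fold change was -0.12 (95% confidence interval -0.66 to 0.42, adjusted p = 0.758, limma), turning to 0.047 when libraries were rescaled to the non-mitochondrial total. Exons of Myd88 (chr9:119335934-119341411) overlap those of Acaa1a on the opposite strand, and 8.93% of its 31-mers are shared, all with Acaa1a. Acaa1a had means of 175 ± 50.2 in CX3CR1- and 109 ± 11.3 in CX3CR1+ libraries (SD, n = 3 each) without overlap. Its log2 fold change of 0.65 was not called, and its part in the Myd88 values was not tested.

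Tirap had values of 130, 92.8 and 99.8 in CX3CR1- and of 100.2, 73.1 and 105 in CX3CR1+ libraries. The log2 fold change was 0.21 (95% confidence interval -0.41 to 0.83, adjusted p = 0.635, limma). The groups overlapped, and 12.3% of its 31-mers are shared with other genes.

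Irak4, the kinase that MyD88 recruits first, had values of 343, 243 and 166 in CX3CR1- and of 247, 206 and 225 in CX3CR1+ libraries. The CX3CR1+ libraries lay inside the range of the CX3CR1- libraries. The log2 fold change was 0.09 (95% confidence interval -0.52 to 0.71, adjusted p = 0.846, limma), and it was -0.16 without CX3CR1- replicate 1.

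**Figure D2:**
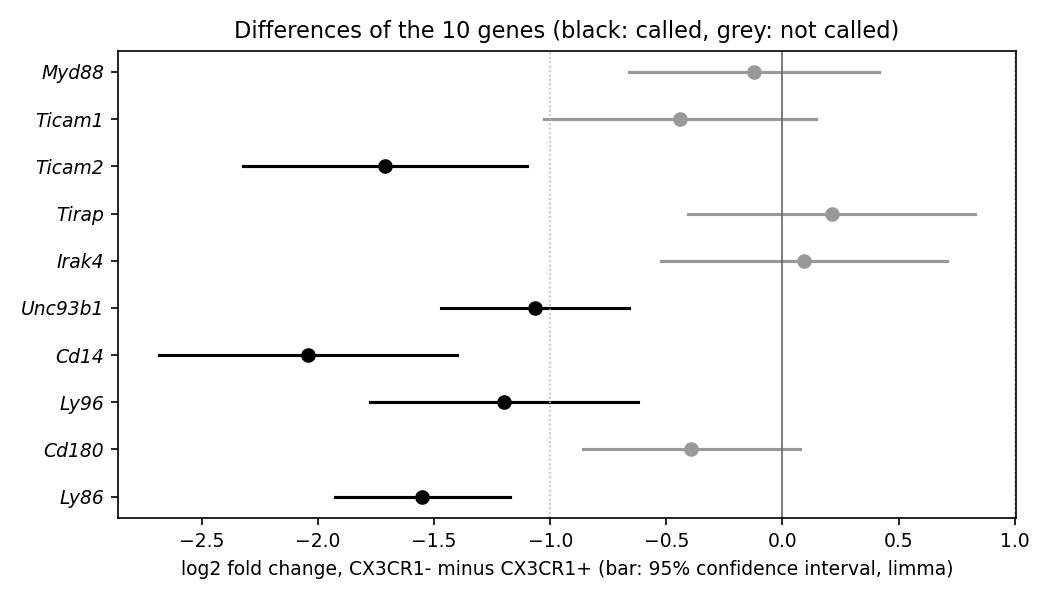
Log2 fold change (CX3CR1- minus CX3CR1+, points) of the 10 genes with the 95% confidence interval from limma (bars), where black marks called genes, grey marks the rest and dotted lines mark the fold threshold of 1. The 5 called genes range from -2.04 (Cd14) to -1.06 (Unc93b1), and the intervals of the other 5 cross 0.

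Levels of different genes were compared after division by the length of the longest coding transcript in kb. In CX3CR1+ cells the order was Cd14 (3448 per kb), Ly86 (1779), Unc93b1 (919), Cd180 (743), Ly96 (217), Ticam1 (104), Ticam2 (86.4), Irak4 (65.8), Myd88 (61.8) and Tirap (20.2). The ranges of Unc93b1 and Cd180, of Ticam1 and Ticam2, and of Irak4 and Myd88 overlapped. In CX3CR1+ cells the TLR4 co-receptors, the RP105 complex and Unc93b1 thus had higher levels per kb than the adaptors and Irak4. In CX3CR1- cells Cd14 (842), Ly86 (609), Cd180 (571) and Unc93b1 (445) again led, but each overlapped its neighbour in this order. Ticam2 stood at 27.3 per kb there, below Myd88 (56.4) and overlapping Tirap (23.4). Ly96 was at 94.3 per kb, Ticam1 at 76.1 and Irak4 at 73.0, and these neighbours overlapped.

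The order depends on which length is used. With the mean length of the coding transcripts, an alternative chosen after seeing the data, Cd180 rose to 1214 per kb in CX3CR1- cells and stood first there, ahead of Cd14, and Tirap at 57.4 per kb stood above Ticam2.

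**Figure D3:**
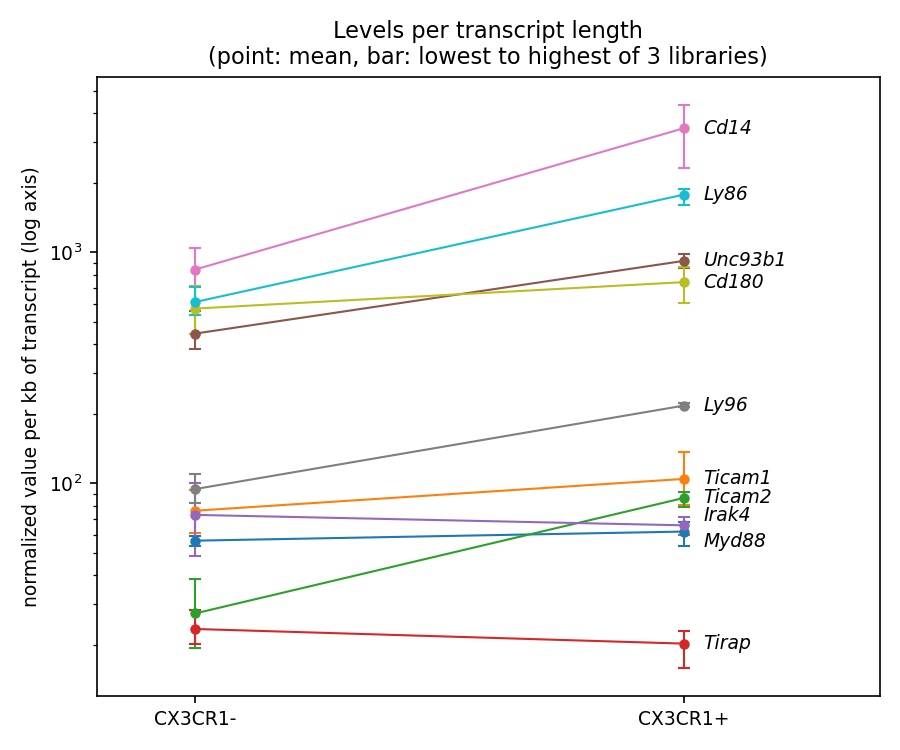
Normalized value per kb of the longest coding transcript (log axis) of the 10 genes in both populations, with points for the mean and bars from the lowest to the highest of 3 libraries. Lines join a gene between populations, and that of Ticam2 runs from 27.3 in CX3CR1- to 86.4 in CX3CR1+ cells across those of Irak4 and Myd88.

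Partner molecules were next compared within each library, since a log2 ratio of 2 genes hardly depends on how libraries were scaled to each other. Here 7 ratios were formed, and 3 libraries against 3 cannot give an exact two-sided permutation p under 0.1. For the 4 ratios that reached it, the value adjusted over the 7 was 0.175. The ratio of Ly86 to Cd180 was -1.29, -1.24 and -0.81 in CX3CR1- and 0.07, -0.11 and 0.18 in CX3CR1+ libraries. Relative to Cd180, Ly86 was thus 2.23-fold lower in CX3CR1- cells, with no overlap (exact permutation p = 0.1, the smallest possible). The ratio of Ticam2 to Ticam1 was -1.44, -0.79 and -0.83 in CX3CR1- and 0.47, -0.15 and 0.43 in CX3CR1+ libraries. The 2 adaptors of the TRIF route thus differed in their change by 1.27 on the log2 scale, again without overlap (exact permutation p = 0.1).

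For the TLR4 complex, Ly96 to Tlr4 had means of -1.45 ± 0.15 and -1.21 ± 0.37 (SD, n = 3 each) in CX3CR1- and CX3CR1+ libraries and overlapped (exact permutation p = 0.4). Cd14 to Tlr4 had means of 3.02 ± 0.23 and 4.10 ± 0.82 and did not overlap, but the highest CX3CR1- library (3.15) and the lowest CX3CR1+ library (3.17) nearly met. The difference of -1.08 moved between -1.55 and -0.77 when 1 library was left out. For Ly96 to Tlr4 the difference of -0.24 moved between -0.45 and -0.10, and without CX3CR1+ replicate 1 (-0.45) the groups no longer overlapped.

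The ratio of Ticam1 to Tlr3 was -1.53, -0.93 and -1.54 in CX3CR1- and -0.31, 1.01 and 0.36 in CX3CR1+ libraries. Per unit of Tlr3, the TRIF adaptor was thus 3.22-fold lower in CX3CR1- cells (exact permutation p = 0.1), which combines a higher Tlr3 with a Ticam1 that was not called. Ticam1 to Myd88 (means 1.01 and 1.33, exact permutation p = 0.5) and Irak4 to Myd88 (1.11 and 0.90, exact permutation p = 0.7) overlapped between the populations.

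**Figure D4:**
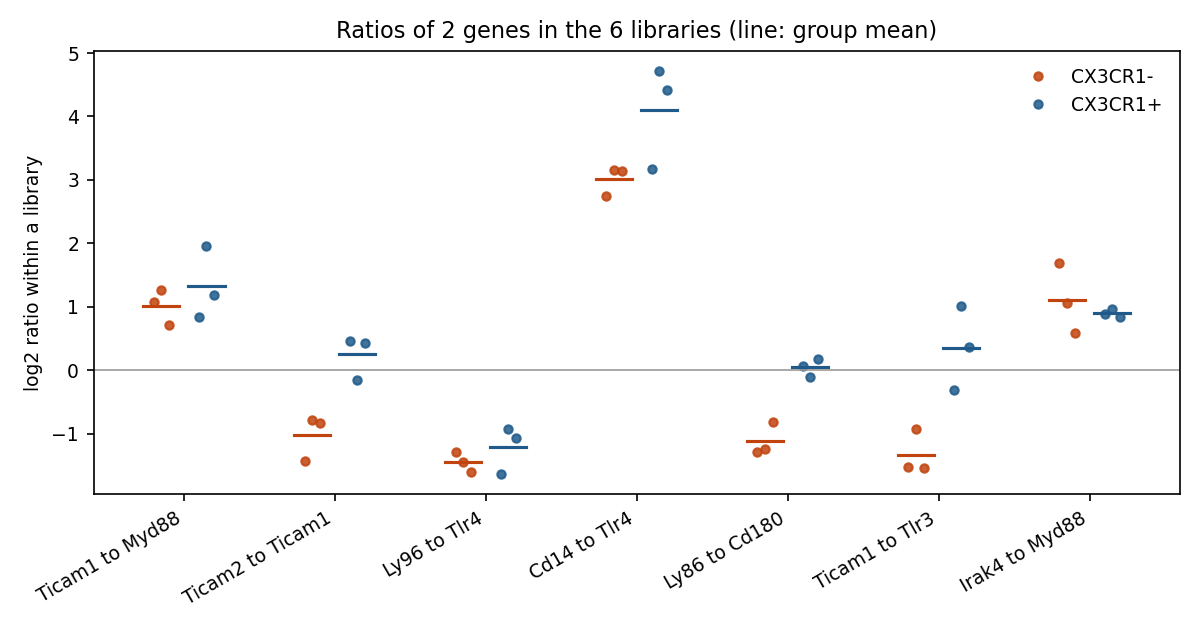
Log2 ratio of 2 genes within each library for the 7 pairs, with points for libraries and a line for the mean of 3 libraries per population. Ticam2 to Ticam1, Cd14 to Tlr4, Ly86 to Cd180 and Ticam1 to Tlr3 lie lower in all CX3CR1- libraries, and the other pairs overlap.

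The other genes of the pathway were taken from 7 lists with 66 genes, of which 62 were tested. Here 20 were lower and 2 (Tlr3 and Tlr11) higher in CX3CR1- cells, with a median log2 fold change of -0.49. Among all genes tested, 8.15% were called lower and 12.2% higher. Without the 12 Tlr genes, 11 of 50 were lower and none was higher (median -0.35). Over all pathway genes, 3 were called higher with no filter on low values, and likewise without CX3CR1- replicate 1 or replicate 2. Those called lower numbered 17 to 23 over the alternative fits.

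Of the proteases that trim endosomal TLR, 4 of 5 were lower (median -1.63), where 8.15% of all genes tested were called lower. Ctsb had means of 2596 ± 471 and 12108 ± 684 (SD, n = 3 each), Ctss was 3.09-fold, Ctsl 2.17-fold and Lgmn 5.64-fold lower in CX3CR1- cells. None of 7 genes for folding and trafficking of TLR was called (median -0.36), where 79.6% of all genes tested were not called. In 3 of these 7 every CX3CR1- library lay below every CX3CR1+ library, against 19.8% of all genes tested. Of the genes that deliver ligands or assist receptors, 1 of 6 tested was lower, the scavenger receptor Cd36 (2.13-fold), and Lbp was too low to be tested.

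Downstream of MyD88, 2 of 15 genes were lower (median -0.30). These were Irak2, a kinase of the Myddosome, at 318 ± 31.2 against 997 ± 230 (SD, n = 3 each), and Pik3ap1 (BCAP), an adaptor that links TLR to PI3K, which was 4.75-fold lower. Downstream of TRIF, 1 of 11 was lower (median -0.27), namely Tank, a scaffold of the TBK1 kinases, at 591 ± 112 against 2144 ± 404. Both shares lie near the 8.15% called lower among all genes tested. Of the remaining genes in these arms, Tab2 (log2 fold change -0.87, adjusted p = 0.00187), Tbk1 (-0.69, adjusted p = 0.0207) and Peli1 (-0.60, adjusted p = 0.0317), named after their values were seen, passed the p threshold in limma but not that on the fold. No gene higher in CX3CR1- cells passed the p threshold. The groups lay apart without overlap in 4 MyD88 arm genes lower and 1 higher in CX3CR1- cells (Ikbkb, 0.52). In the TRIF arm this held for 4 lower and 2 higher (Tradd, 1.32, and Irf3, 0.46). These 3 were also named after their values were seen. Among all genes tested, 19.8% lay apart lower and 20.3% higher.

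Of the negative regulators, 3 of 6 tested were lower (median -0.96), against 8.15% of all genes tested. Tollip was 2.73-fold, the deubiquitinase Tnfaip3 (A20) 2.58-fold and the inhibitory kinase Irak3 2.16-fold lower in CX3CR1- cells. Sigirr, Sarm1 and Socs1 were too low to be tested. Sigirr had values of 9.77, 22.3 and 6.58 in CX3CR1- and of 0, 0 and 1.33 in CX3CR1+ libraries, while Sarm1 and Socs1 overlapped.

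**Figure D5:**
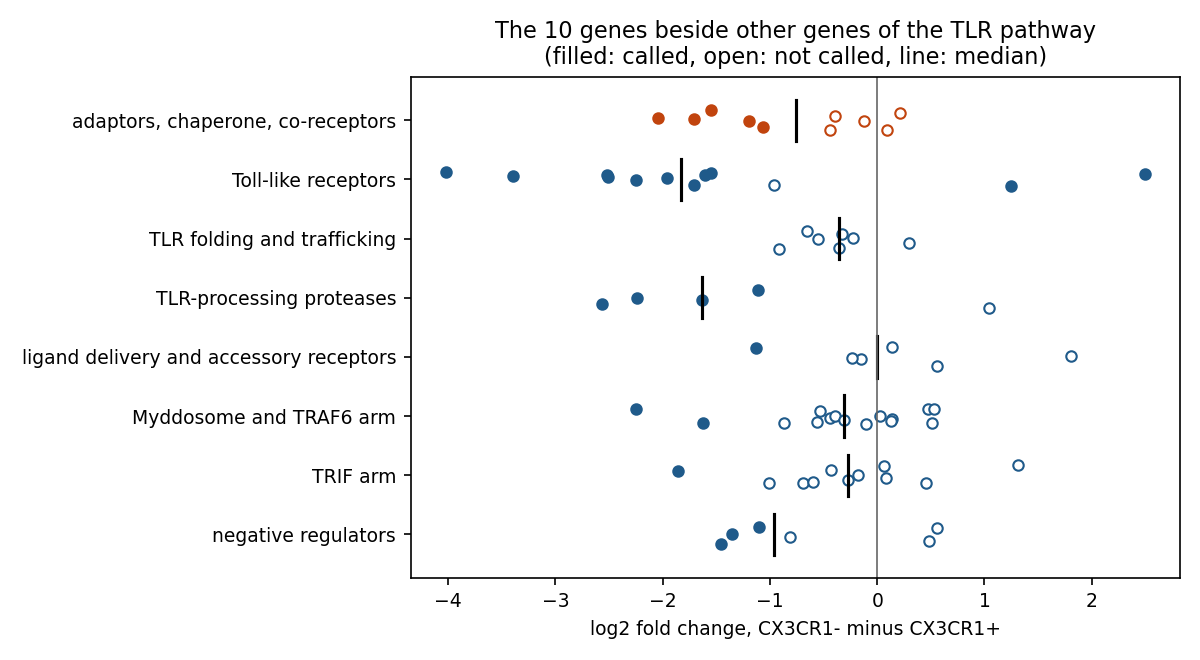
Log2 fold change (CX3CR1- minus CX3CR1+) of the 10 genes (top row) and of the tested genes in 7 further lists of the TLR pathway, where filled points were called, open points were not and a black line marks each list's median. The medians lie at -1.83 for the Toll-like receptors and -1.63 for the proteases, and between -0.36 and -0.006 for folding and trafficking, ligand delivery and the MyD88 and TRIF arms.

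The genes closest to 3 of these patterns were found by the root mean square distance between centred log2 values over the 6 libraries. For Cd14 these were Prdm1 (0.12), Stap1 (0.14) and Pyroxd2 (0.15). Their log2 fold changes of -2.22, -2.11 and -2.16 lay near that of Cd14 because of how they were chosen. For Myd88 they were Supt16 (0.048), Tial1 (0.057) and Slc25a42 (0.066). For Ticam1 they were CT009713.10 (0.068), Gm26562 (0.078) and B4galt5 (0.097).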

How the data were processed

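The authors sequenced single reads of 75 bases from TruSeq v2 libraries, pseudoaligned them to GENCODE M16 (mm10) with Kallisto, summed estimated counts per gene through tximport and used DESeq2 for normalization. The deposited signal is this normalized value per gene. No count test was run, because only 42.5 to 44.4% of values above 0 were whole multiples of a library's smallest step (tolerance 0.01). That step gave the approximate depth, with 3 reads worth 1.39 to 5.36, and limits precision for low genes.

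Groups came from the sample titles. Genes whose mean over 6 libraries reached 10 (17812 of 26110, with 23 repeated symbols) were tested with limma 3.58.1 in R 4.3.3 (intensity trend) on log2(value + 1), two-sided, Benjamini-Hochberg adjusted over all tested genes. Fold changes are on this scale and understate those of low genes. Ratios were tested by exact two-sided permutation. Loci, lengths and shared 31-mers came from GENCODE M21 (GRCm38), and promoter windows from RefSeq, which matched 6 of the 10 genes, 3 of them with a window free of exons and outside the gene.

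The 10 genes, the lists and the ratios were chosen with earlier results of these data known. Named are the 10 genes, at most 4 called genes per list by adjusted p, the Tlr genes beside their partners, the 3 nearest patterns of Ticam1, Myd88 and Cd14, genes that overlap one of the 10, and genes at 0 or too low to be tested. Alternatives were other pseudocounts, filters, scalings, variance priors, library weights, thresholds and lengths, and leaving out each library. Plots were drawn with matplotlib 3.10.9.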

Additional observations from a re-analysis of the deposited data

How the results depend on the processing

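Cd14, Ticam2, Ly86 and Ly96 stayed lower and called in every alternative fit at the fold threshold used, and no gene of the 10 was called higher in any. Unc93b1 was not called under quantile normalization (-0.70), after rescaling to the non-mitochondrial total (-0.89) or without CX3CR1- replicate 1 or 3 (range over 6 left-out libraries -1.24 to -0.97), which left 4 genes called. The first of these scalings moved the median of all genes by -0.15 and the second by 0.17, and relative to these medians Unc93b1 differed by -0.55 and -1.06. At a log2 threshold of 2, only Cd14 remained (1 gene), by construction. The sign turned for Cd180 under quantile normalization (0.016), for Myd88 after rescaling to the non-mitochondrial total (0.047), and without CX3CR1- replicate 1 for Irak4 (-0.16; range to 0.36) and Irak4 to Myd88 (-0.074; range to 0.48); the cause was not tested. Called higher among all genes were 2177, but 1232 at a mean of at least 50, where 10208 genes were tested. The labels pair no libraries, but library numbers are adjacent across the populations. Blocking on these pairs, an alternative chosen after seeing the data, changed no call among the 10 genes (5 lower, Cd180 adjusted p = 0.0894, Ticam1 adjusted p = 0.202, limma), and deviations within the pairs correlated at 0.10, 0.038 and 0.014 across genes. Of the 10 genes, Ly96 rests on the fewest reads (38.8).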
